A study of Homo sapiens with 12 samples.

Results

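The small-subunit processome and the factors that finish the 40S ribosomal subunit were followed through their mRNAs, as 46 genes among the 61163 rows of each count table. The 46 were taken by symbol: rows whose symbol stood on a list of known factors were used, and all 46 were found in both tables. The rule uses no measured value, but the list was drawn up with earlier results of these data known. Total RNA was sequenced from 2 fractions, nucleolar (NO) and cytoplasmic-nuclear (CN), of each of 2 cell lines, giving 4 groups of 3 replicates. HEK WT is wild-type HEK293T, an established line of human embryonic kidney cells, and HEK UL1 KO is the same line after CRISPR-Cas9 targeting of HNRNPUL1 with guides in exons 2 and 3. The sources used here do not say whether HEK UL1 KO is 1 clone, so a clone and the genotype cannot be told apart. All 4 groups share 1 growth protocol with no treatment named, and the RNA was not depleted of rRNA. The labels name the replicates without saying how they were separated, so p-values measure the spread between these samples, which may be technical. In bulk RNA, fewer cells that express a gene and less RNA per cell cannot be told apart.

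The processome is the large particle that forms on the 5′ part of the nascent pre-rRNA and folds and cuts it on the way to 18S rRNA. Its RNA core is the U3 snoRNA, held by the box C/D proteins FBL, NOP56, NOP58 and SNU13 and by the U3-specific protein RRP9. UTP-A (also called t-UTP) binds first and is also needed for transcription of the rRNA genes, UTP-B forms a scaffold, and later factors trim the pre-40S particle and carry it to the cytoplasm. Many of these genes are known targets of MYC, which binds the E-box CACGTG.

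A feature that the list did not use was present in 18 of the members' promoters. Promoter sequences from RefSeq (GRCh38.p14, 250 bases before to 50 after each gene's start) were matched to 40 of the 46 members and searched for CACGTG, a motif that reads the same on both strands. It was present in 18 of the 40 (45%), against 7.43% of all 27305 promoters of this length and 8.88% of the promoters of protein-coding genes. In each of the 18 members, 1 copy of the motif began between 20 bases before and 44 bases after the start base, a range set after the positions had been seen. Of all promoters, 1.61% held a motif in that range. The ETS motif (ACTTCCGG or CCGGAAGT) was present in 15% of member promoters, against 4.44% of all and 6.19% of protein-coding ones. The SP1 motif (GGGCGG or CCGCCC) was present in 85.0%, against 44.6% and 58.5%, and TATAAA (or TTTATA) in 7.50%, against 11.95% and 9.63%. Windows of 30 bases around the motif are shown for the 9 members in which it begins nearest to the start, a choice made by position alone, to show the motif in its setting. They are read in the direction of the gene, with the E-box in capitals.
UTP20: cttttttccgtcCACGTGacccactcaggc
RRP9: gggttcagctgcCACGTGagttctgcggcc
PWP2: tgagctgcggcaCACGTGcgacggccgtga
WDR43: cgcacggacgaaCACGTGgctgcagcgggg
RCL1: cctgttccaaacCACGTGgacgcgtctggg
UTP18: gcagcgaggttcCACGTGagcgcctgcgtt
FBL: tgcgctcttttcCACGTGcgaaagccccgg
PNO1: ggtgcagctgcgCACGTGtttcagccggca
ESF1: gggtgtgagcccCACGTGaggcttggtagg
The windows of UTP20 (chr12:101280083-101280112), PWP2 (chr21:44107388-44107417), WDR43 (chr2:28894658-28894687), RCL1 (chr9:4792936-4792965), UTP18 (chr17:51260538-51260567) and PNO1 (chr2:68157885-68157914) lie on the plus strand, and those of RRP9 (chr3:51941892-51941921), FBL (chr19:39846356-39846385) and ESF1 (chr20:13784890-13784919) on the minus strand. Counted from the start base, the motif began 10 bases before it in UTP20 and 5 bases before it in RRP9, and 6 bases after it in FBL and 12 bases after it in ESF1. A match describes the letters in the window and was not tested as a binding site.

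The members are genes of moderate to low mRNA level in libraries made mostly of rRNA. Total counts per library ranged from 37141666 to 104040073, of which rRNA genes took 55.3 to 78.7%, and the count of a member in a library ranged from 8 to 4663. All 46 were detected in all 12 libraries and passed the filter on low counts in every comparison. Per kb of exon, in CPM (counts scaled to a fixed library total after TMM normalization), the highest mean levels in CN of HEK WT were those of NOP58 (10.7 ± 0.242, SD, n = 3), LTV1 (9.35 ± 0.175) and WDR43 (8.93 ± 0.175), and the lowest was that of TBL3 (0.109 ± 0.0218). HNRNPUL1 fell in both fractions, with a log2 fold change of -1.83 ± 0.08 (SE) in CN (15.4 to 17.97 CPM in HEK WT, 4.74 to 4.86 in HEK UL1 KO, n = 3 each, adjusted p = 2.12e-07, edgeR's quasi-likelihood test with Benjamini-Hochberg adjustment). In NO, with 9.28 to 21.5 CPM in HEK WT and 3.56 to 4.08 in HEK UL1 KO, its log2 fold change was -2.0 ± 0.32 (edgeR, adjusted p = 0.00649). The kidney line markers PAX2, LHX1, NEFM and ENO2 had counts in every library, and all 4 differed between the genotypes in CN, as given beside the calls in CN. Among markers of other cell types, ALB, DES and GFAP had at most 48 counts in a library while PTPRC and MYH11 had 5 to 454. In HEK WT, PTPRC was at 0.811 to 1.66 CPM in NO and 0.0674 to 0.268 CPM in CN, and MYH11 at 0.998 to 3.87 and 0.445 to 0.658 CPM, and their part in the results for NO was not tested. In NO of HEK WT, replicate 3 stood apart, with a TMM factor of 1.40 against 0.690 and 0.622 in replicates 1 and 2, nearer to the 1.09 to 1.34 of the HEK UL1 KO libraries. In it the members took 3214 of every 1e+06 protein-coding counts, against 3885 and 3727 in the other replicates. The HEK UL1 KO libraries in NO had 3217, 2982 and 3420. Replicate 3 was singled out after these values had been seen, the members' own share among them. Results without it are therefore not independent of that choice. The comparisons that use NO of HEK WT are also given without replicate 3. Its markers differed too. In the fit of HEK WT, NEFM was at 1.57 CPM against 5.33 and 6.51 in replicates 1 and 2, and MYH11 at 3.87 against 1.52 and 0.998. PTPRC was at 1.66 against 0.823 and 0.811, and PAX2 at 3.12 against 1.66 and 1.27. LHX1 and ENO2 lay between the other replicates. The part of these differences in the results for NO was not tested. For 8 members, over 20% of the exon bases lie under a gene of the other strand that the tables also list (EMG1, RRP7A, IMP3, TBL3, TSR1, HEATR1, DIMT1 and NOP14), and whether the counting used strand is not given in the sources used here. BMS1 and RRP7A also have copies, found by symbol, with many counts. Over all libraries BMS1P1 and BMS1P2 stood at 90.8% and 85.0% of BMS1, and RRP7BP at 59.7% of RRP7A. The sequences of the copies were not compared. Reads may be shared with the copies, so the values of BMS1 and RRP7A are uncertain.

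The knockout was set against wild type in CN to ask how the mRNAs of these factors stand without hnRNP UL1 outside the nucleolus. Of the 46 members, 26 fell and 0 rose (edgeR's quasi-likelihood test, adjusted p under 0.05), while 22.3% of all 27234 genes tested fell, 15.6% rose and 37.9% were called in either direction. All 46 members are protein-coding, and of the protein-coding genes tested 28.5% fell and 16.1% rose. At an unadjusted p under 0.05, 28 members were lower and 3 were higher (PWP2, NOP14 and BYSL). DESeq2 called 21 lower and 0 higher, with 19.0% of all genes lower and 13.2% higher. The median log2 fold change of the members was -0.32, against 0.04 over all genes tested and -0.04 over protein-coding genes. The CPM of 30 members did not overlap between the genotypes and were lower in the knockout, as for 28.1% of all genes, and those of 4 (PWP2, NOP56, NOP14 and BYSL) did not overlap and were higher, as for 24.7%. Among protein-coding genes the shares were 34.8% lower and 23.8% higher. Under TMM over protein-coding genes these 4 members were called higher and 22 members lower, with 18.5% of all genes lower and 19.1% higher. Under total counts 3 members were lower (6.52%) and 1 (PWP2) was higher, with 6.35% of all genes lower and 13.6% higher. The fit of all 12 libraries called 4 members lower (8.70%), with 6.41% of all genes lower. Under these last settings the share of members called lower was near that of all genes, so the excess of calls depended on the scaling and the fit. The members' median was -0.11 under total counts, against 0.24 over all genes, and -0.40 in the fit of all 12 libraries, against 0.10. Without HEK WT replicate 3 in CN, 21 members were lower and 3 were higher (NOP14, BYSL and PWP2), with 18.8% of all genes lower and 17.2% higher.

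Markers also differed between the genotypes in CN. The nuclear RNA MALAT1 was at 181 to 193 CPM in HEK WT and 334 to 362 CPM in HEK UL1 KO, a difference of 0.93 ± 0.09 on the log2 scale (edgeR, adjusted p = 3.13e-05). GAPDH was higher by 0.34 (edgeR, adjusted p = 0.0275), and ACTB had a log2 fold change of -0.08 that did not pass the test. Of the 4 markers of the line, LHX1, ENO2 and PAX2 were higher by 1.85, 1.22 and 0.76, and NEFM fell by 0.54. The part of these differences in the members' values was not tested.

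In UTP-A, 5 of the 6 genes fell in CN, where 22.3% of all genes tested fell. WDR43 had a log2 fold change of -0.15 (edgeR, adjusted p = 0.113). UTP15, the UTP-A subunit on chromosome 5 (73565443 to 73583380, plus strand), had 8.44, 7.84 and 8.0 CPM in the HEK WT libraries and 3.62, 4.19 and 3.98 CPM in the HEK UL1 KO libraries. The groups were far apart, and the log2 fold change was -1.04 ± 0.09 (SE; edgeR, adjusted p = 1.14e-05). HEATR1, the largest protein of the complex, on chromosome 1 (236549005 to 236604516, minus strand), had 55.3, 54.8 and 54.4 CPM in HEK WT and 30.6, 31.2 and 28.4 CPM in HEK UL1 KO, with a log2 fold change of -0.87 ± 0.07 (edgeR, adjusted p = 1.06e-05). The replicates of HEATR1 lay close together in both groups. NOL11, WDR75 and UTP4 fell by 0.55, 0.39 and 0.34 on the log2 scale, and the call of WDR75 was lost in 3 of the 13 alternatives. Together with DIMT1, UTP15 and HEATR1 were called lower in all 13 alternative analyses of CN.

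Among the proteins that hold U3, the box C/D proteins did not move together. FBL, the methyltransferase of the particle, on chromosome 19 (39834458 to 39846379, minus strand), had 9.10, 8.34 and 9.27 CPM in HEK WT and 6.34, 6.06 and 6.97 CPM in HEK UL1 KO. The ranges did not overlap, and FBL fell by 0.47 on the log2 scale (SE 0.08, edgeR, adjusted p = 0.00156). NOP58, a scaffold protein of the particle, had 35.7, 35.1 and 34.1 CPM in HEK WT and 28.5, 29.4 and 28.2 CPM in HEK UL1 KO, and fell by 0.29 (SE 0.07, edgeR, adjusted p = 0.00664). SNU13, which binds the kink-turn of the snoRNA, had 5.77, 4.94 and 6.04 CPM in HEK WT and 4.26, 4.18 and 4.84 CPM in HEK UL1 KO, and fell by 0.34 (SE 0.10, edgeR, adjusted p = 0.0273). For SNU13 the nearest libraries of the groups almost met, and its call was lost in 8 of the 13 alternatives, DESeq2 among them. NOP56, the partner of NOP58, had 12.5, 11.9 and 12.7 CPM in HEK WT and 13.1, 13.4 and 14.4 CPM in HEK UL1 KO. Its log2 fold change of 0.14 ± 0.07 did not pass the test (edgeR, adjusted p = 0.145). RRP9, at 0.451, 0.502 and 0.518 CPM in HEK WT and 0.314, 0.253 and 0.371 CPM in HEK UL1 KO, was lower in every library but did not pass either (log2 fold change -0.66 ± 0.26, edgeR, adjusted p = 0.0645).

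UTP-B was divided. WDR36, WDR3 and UTP18 fell by 0.55, 0.46 and 0.22, while PWP2, TBL3 and UTP6 had log2 fold changes of 0.29, 0.15 and 0.07 that did not pass the test. The call of UTP18 was lost in 11 of the 13 alternatives, DESeq2 and the replicate block among them. PWP2 had 2.53, 2.58 and 3.08 CPM in HEK WT and 3.16, 3.43 and 3.44 CPM in HEK UL1 KO (edgeR, adjusted p = 0.0646). Its groups did not overlap, in the direction opposite to that of most members.

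In the MPP10 complex, which helps U3 to pair with the pre-rRNA, IMP4 and MPHOSPH10 fell and IMP3 did not pass the test (log2 fold change 0.10). MPHOSPH10, which fell by 0.27, lost its call in 9 of the 13 alternatives, DESeq2 among them. IMP4, on chromosome 2 (130342877 to 130347967, plus strand), had 1.48, 1.66 and 2.01 CPM in HEK WT and 1.04, 1.05 and 1.16 CPM in HEK UL1 KO, and fell by 0.66 (SE 0.16, edgeR, adjusted p = 0.00779). NOL6, a subunit of UTP-C, on chromosome 9 (33461353 to 33473930, minus strand), had 0.997, 1.23 and 1.55 CPM in HEK WT and 0.874, 0.839 and 0.725 CPM in HEK UL1 KO, and fell by 0.63 (SE 0.20, edgeR, adjusted p = 0.0289). The HEK WT libraries of NOL6 spread widely, and its call was lost in 9 of the 13 alternatives. The GTPase BMS1 and its partner RCL1 fell by 0.40 and 0.34. Of the module of NOP14, NOC4L and the methyltransferase EMG1, 0 of 3 members were called by edgeR (NOP14 alone had an unadjusted p under 0.05, and DESeq2 called 0), and their log2 fold changes were 0.16, 0.14 and 0.14. Of all genes tested in CN, 37.9% were called by edgeR. DHX37, the helicase that releases U3, had a log2 fold change of -0.45 (edgeR, adjusted p = 0.0776).

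Of the remaining processome factors, 5 of 10 fell, where 22.3% of all genes tested in CN fell. KRR1 fell by 0.58, UTP20 by 0.54, DCAF13 by 0.52, NAT10, the cytidine acetyltransferase of 18S rRNA, by 0.37, and NOL10 by 0.30. UTP3, UTP11, UTP23, WDR46 and ESF1 had log2 fold changes between -0.19 and 0.12 that did not pass the test. Late in the pathway, 5 of 8 members fell, beside the same 22.3% of all genes. DIMT1, which dimethylates adenosines near the 3′ end of 18S rRNA, on chromosome 5 (62347284 to 62403943, minus strand), had 5.99, 5.83 and 5.04 CPM in HEK WT and 2.79, 3.12 and 2.28 CPM in HEK UL1 KO. Every HEK UL1 KO library was well below every HEK WT library, with a log2 fold change of -1.04 ± 0.13 (edgeR, adjusted p = 0.000117). LTV1, an export factor of the pre-40S particle, and PNO1 fell by 0.60 and 0.54, and NOB1, the nuclease that makes the 3′ end of 18S rRNA, and the kinase RIOK1 fell by 0.40 and 0.25. The call of RIOK1 was lost in 8 of the 13 alternatives, DESeq2 among them, and that of NOB1 in 6, the replicate block among them. The scaffold factor BYSL had a log2 fold change of 0.27 (edgeR, adjusted p = 0.0709).

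**Figure D1:**
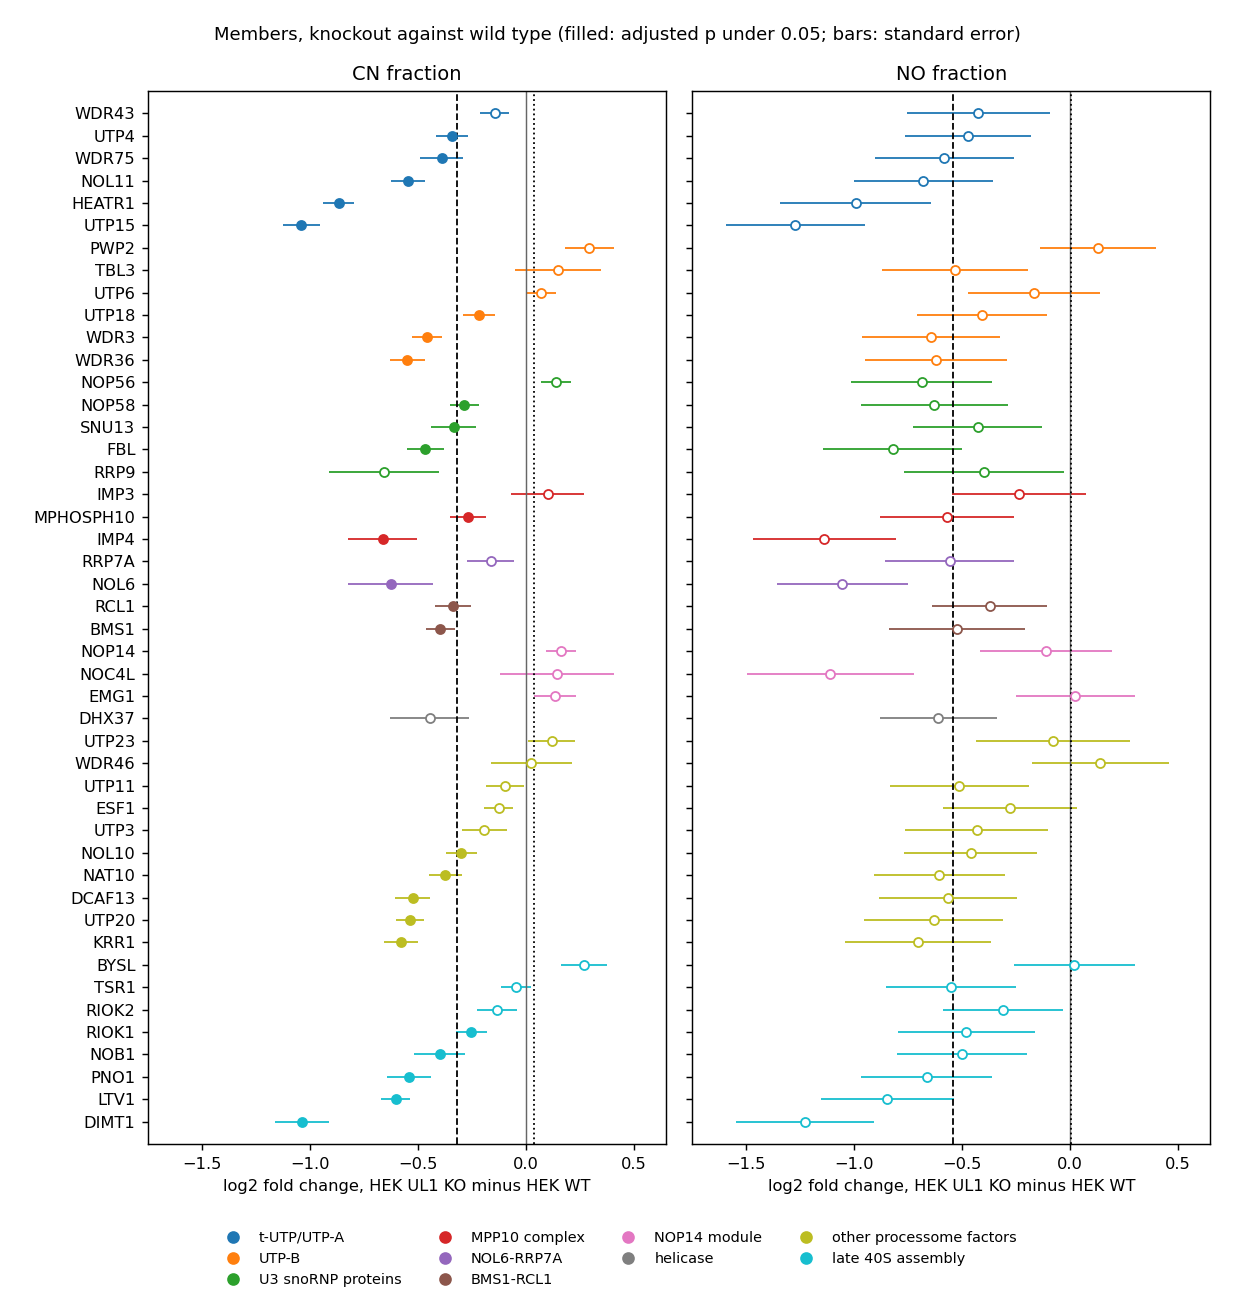
Log2 fold change of each of the 46 members, HEK UL1 KO minus HEK WT, in CN (left) and NO (right), coloured by role, with bars of 1 standard error; filled points had an adjusted p under 0.05 by edgeR. The dashed line is the median of the members (-0.32 in CN and -0.54 in NO) and the dotted line that of all genes tested (0.04 in CN).

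**Figure D2:**
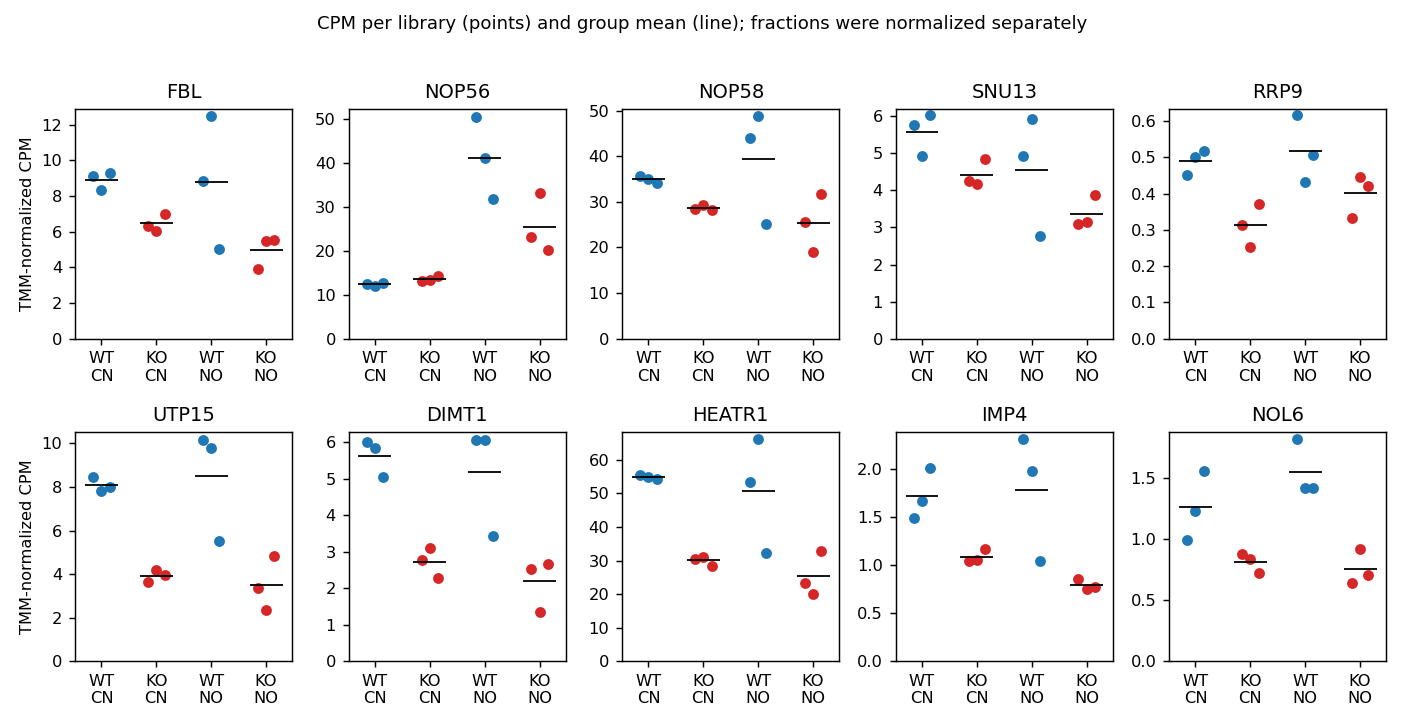
TMM-normalized CPM in each library (points, blue for HEK WT and red for HEK UL1 KO) with the group mean of 3 libraries (line) for the 5 proteins that hold U3 and the 5 called members with the largest falls in CN. UTP15 lies at 7.84 to 8.44 CPM in CN of HEK WT and at 3.62 to 4.19 CPM in HEK UL1 KO, whereas in NO the points of each group spread widely.

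Members with and without the E-box were among those that fell. Of the 18 members with the motif, 10 fell in CN, and of the 22 members whose matched promoter held no motif, 11 fell. In CN 22.3% of all genes tested fell. Of the 6 members with no matched promoter, 5 fell. The median log2 fold changes in CN were -0.36 with the motif and -0.22 without it, and in NO they had the other order, at -0.45 and -0.55. These counts are a description and the difference between them was not tested.

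The values also went with the members' places in the genome. For each member, the protein-coding genes of RefSeq whose midpoints lay within 5 Mb of its own were taken, and their log2 fold changes in CN were summarised. Around UTP15, 84.2% of 57 genes had a log2 fold change below 0, their median was -0.68, and 39 were called lower and 1 higher. Around DIMT1, on the same chromosome but with no gene in common with the UTP15 window, 89.3% of 28 genes were below 0 with a median of -0.82. Both members lay in stretches where most genes were lower.

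HEATR1 and NOL6 had neighbours of the same kind, with medians of -0.46 over 31 genes and -0.62 over 71 genes. NOL6, at -0.63, lay at the level of its neighbours. IMP4 was not in such a stretch: 55.0% of its 40 neighbours were below 0, their median was -0.06, and IMP4 was lower than that median by 0.60. NOL11 had a neighbour median of 0.11 and itself a log2 fold change of -0.55. Around FBL, at -0.47, 64.7% of 167 neighbours were below 0 with a median of -0.21, and 36 were called lower and 20 higher. HNRNPUL1, the targeted gene, is 1 of these neighbours and lies 1.44 Mb from FBL. The members with values above 0 lay mostly where neighbours were higher. The median was 0.48 around WDR46 and EMG1, 0.40 around BYSL and 0.38 around NOP14.

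Across the 46 members, the log2 fold change of a member and the median of its neighbours had a Pearson r of 0.81 and a Spearman rho of 0.72. Across 14783 protein-coding genes with at least 10 neighbours the values were 0.40 and 0.43. These are correlations across genes, which share the same 6 libraries and in part the same neighbours, and they are given as a description. After the neighbours' median was subtracted, a step chosen after the data had been seen, 39 of the 46 members were below 0 (35 before it), against 50.1% of protein-coding genes, and the members' median was -0.20 in place of -0.32. In NO, where the same subtraction gave a median of -0.33, 44 of the 46 members were below their neighbours, against 50.1% of protein-coding genes. The Pearson r and Spearman rho in NO were 0.72 and 0.54 across members, and 0.47 and 0.46 across 16753 protein-coding genes. The part that position plays in the members' values was not tested.

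**Figure D3:**
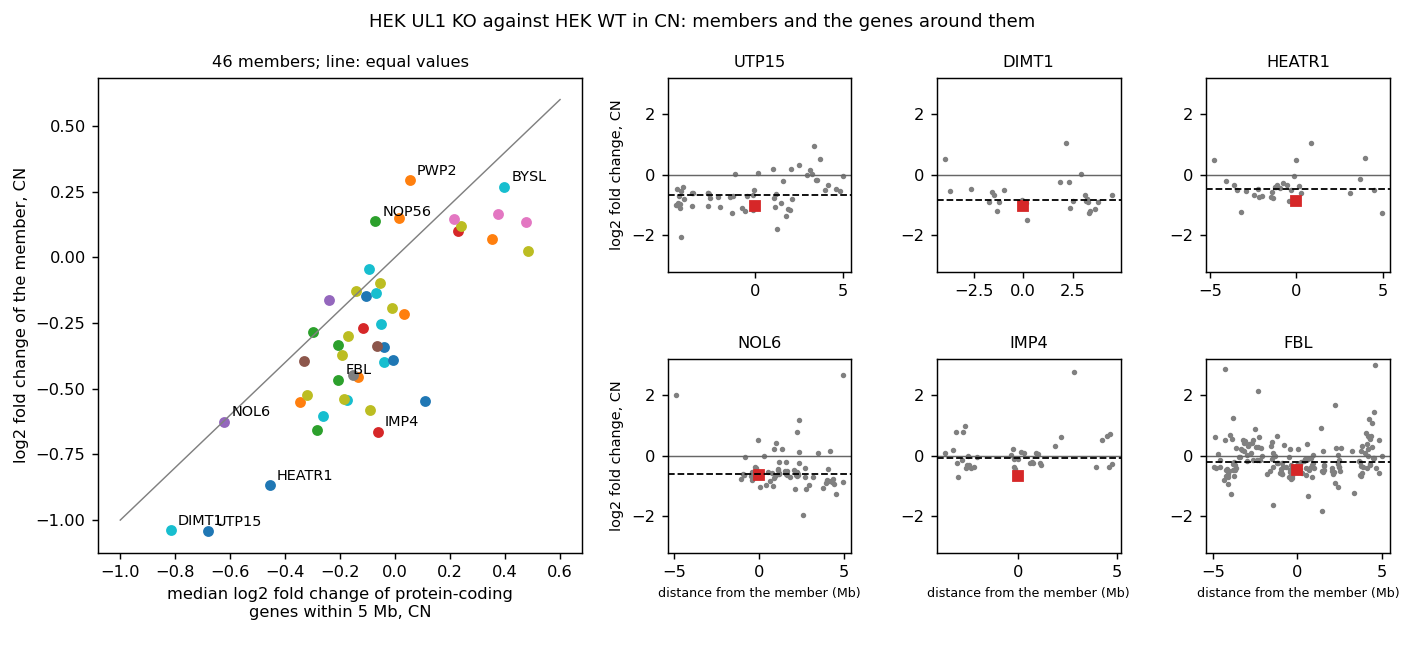
Left, log2 fold change in CN of each member (vertical axis) against the median of protein-coding genes within 5 Mb (horizontal axis), coloured by role as in the plot of knockout effects, with the line of equal values. Right, neighbours of 6 members (grey points) by distance from the member in Mb, the member (red square) and the neighbours' median (dashed line); around UTP15 and DIMT1 the medians are -0.68 and -0.82.

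The same comparison in NO asks how these mRNAs stand in the nucleolar fraction, where the processome forms. Of the 46 members, 0 were called by edgeR's quasi-likelihood test, where 0.939% of 34836 genes were called and 0.574% were lower, 11 were lower at an unadjusted p under 0.05, and DESeq2 called 5 lower (UTP15, DIMT1, HEATR1, IMP4 and NOL6), where 2.37% of all genes were lower by DESeq2. The median of the members was -0.54, against 0.00403 over all genes tested and -0.12 over protein-coding genes, and 42 of 46 log2 fold changes were negative. The CPM of 8 members were lower in every HEK UL1 KO library (UTP15, IMP4, NOL6, RCL1, NOC4L, DHX37, LTV1 and DIMT1), as for 9.17% of all genes, and those of 0 were higher in every one, as for 11.0%. Among protein-coding genes the shares were 12.3% lower and 9.16% higher. Without replicate 3 of HEK WT, 32 members were called lower and 0 higher, with 15.3% of all genes lower, 9.87% higher and 25.1% called in either direction. That library was singled out after the members' share in it had been seen. Under total counts 0 were called and the median of the members was 0.00703, against 0.40 over all genes.

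UTP15 had 10.2, 9.79 and 5.54 CPM in the NO libraries of HEK WT and 3.35, 2.35 and 4.82 CPM in those of HEK UL1 KO. The value of HEK WT replicate 3 lay near the highest of HEK UL1 KO, and the log2 fold change of -1.27 ± 0.32 did not pass the test (edgeR, adjusted p = 0.0679). DIMT1 had 6.05, 6.05 and 3.42 CPM in HEK WT and 2.54, 1.36 and 2.67 CPM in HEK UL1 KO (log2 fold change -1.23 ± 0.32, edgeR, adjusted p = 0.0757). Replicate 3 of HEK WT was again the lowest of its group.

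FBL had 8.82, 12.4 and 5.00 CPM in HEK WT and 3.88, 5.48 and 5.50 CPM in HEK UL1 KO, with a log2 fold change of -0.82 ± 0.32 (edgeR, adjusted p = 0.225). Its groups overlapped through replicate 3 of HEK WT. NOP58 had 43.96, 48.9 and 25.0 CPM against 25.6, 18.9 and 31.7 CPM, SNU13 had 4.92, 5.93 and 2.78 against 3.08, 3.15 and 3.86, and RRP9 had 0.615, 0.432 and 0.505 against 0.333, 0.446 and 0.422. All of these overlapped. NOP56 had 50.5, 41.2 and 31.8 CPM in HEK WT and 23.2, 33.2 and 20.2 CPM in HEK UL1 KO, with a log2 fold change of -0.69 ± 0.33 (edgeR, adjusted p = 0.314), where in CN its value was 0.14.

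A difference of the knockout effect between NO and CN was tested by an interaction term fitted over all 12 libraries. By edgeR's quasi-likelihood test 0 of 46 members were called (of 37806 genes 0.114% were, 0.0846% with a higher and 0.0291% with a lower effect in NO), 2 had an unadjusted p under 0.05, and DESeq2 called 0. Those with an unadjusted p under 0.05 were NOC4L, whose effect in NO minus that in CN was -1.12 ± 0.44 on the log2 scale, and NOP56, at -0.68 ± 0.29. Without replicate 3 of HEK WT in NO, 0 members were called and 4 had an unadjusted p under 0.05.

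NO was compared with CN within each genotype to see where the mRNAs of the members lay. Under TMM, in HEK WT 20 members were lower in NO and 1 was higher (edgeR's quasi-likelihood test), with 20.9% of 29340 genes lower, 31.9% higher and 52.8% called in either direction. Of protein-coding genes, 30.3% were lower and 23.7% higher. The median of the members was -0.44, against 0.02 over all genes and -0.23 over protein-coding genes. These counts moved with the scaling: under total counts 0 members were lower and 1 was higher, with 2.13% of all genes lower and 21.8% higher. Under TMM over protein-coding genes 2 members were lower (NOL10 and RCL1; 4.35%) and 1 was higher, with 9.62% of all genes lower. With all 12 libraries in one fit 36 members were lower and 1 was higher, with 27.4% of all genes lower. They also moved with single libraries: without CN replicates 1, 2 and 3 in turn, 7, 8 and 11 members were lower (15.2, 17.4 and 23.9%), with 14.5, 15.6 and 14.2% of all genes lower, so without CN replicate 1 or 2 the share was near that of all genes. The count was 32 without NO replicate 2, with 26.4% of all genes lower. Without NO replicate 3 it was 20, with 20.8% of all genes lower and a median of -0.31. The CPM of 33 members were lower in every NO library than in every CN library, as for 30.5% of all genes, and those of 1 (NOP56) were higher in every one, as for 35.2%. Among protein-coding genes the shares were 41.7% lower and 26.9% higher. In HEK UL1 KO 42 members were lower in NO and 0 higher, with 35.6% of 34468 genes lower, 40.7% higher and 76.3% called in either direction, a median of -0.78 and a median over protein-coding genes of -0.45. Of protein-coding genes there, 49.9% were lower and 27.9% higher. None of the 46 was higher at an unadjusted p under 0.05 or by DESeq2. The CPM of 41 members were lower in every NO library there, as for 36.8% of all genes, and of 0 higher in every one, as for 41.3%. Among protein-coding genes the shares were 51.8% lower and 28.6% higher. Under total counts 0 members were lower in HEK UL1 KO and 1 (NOP56) was higher, with 2.43% of all genes lower and 53.5% higher. Under TMM over protein-coding genes 19 were lower and 1 (NOP56) was higher, with 16.5% of all genes lower.

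Markers moved between the fractions too. In HEK WT ACTB fell from CN to NO by 0.86 and MALAT1 by 1.08 on the log2 scale, and GAPDH had a log2 fold change of -0.56 that did not pass the test (edgeR, adjusted p = 0.0897). PTPRC, MYH11 and the line marker PAX2 were higher in NO of HEK WT by 2.46, 1.94 and 1.29. The line markers LHX1, NEFM and ENO2 had log2 fold changes of -0.11, -0.23 and 0.54 that did not pass the test. In HEK UL1 KO ACTB, GAPDH and MALAT1 fell by 1.14, 0.98 and 1.44, each by more than the members' median. Of the 5 markers of other cell types, PTPRC, MYH11, ALB and GFAP were higher in NO there by 1.67, 1.78, 1.53 and 1.32, and DES had a log2 fold change of 0.80 that did not pass the test. Among the line markers in HEK UL1 KO, PAX2 was higher in NO by 0.63, and LHX1 and NEFM were lower (-0.80 and -0.74). ENO2 had a log2 fold change of -0.27 that did not pass the test. The part of all these markers in the members' values was not tested.

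NOP56 was the member that stood on the other side. In the fit of HEK WT it had 36.9, 27.7 and 27.7 CPM in NO and 12.8, 12.2 and 13.6 CPM in CN. All NO libraries were above all CN libraries, with a log2 fold change of 1.26 ± 0.17 (edgeR, adjusted p = 0.00289), and it was called higher in all 13 alternatives, with values from 0.998 to 1.59. In HEK UL1 KO it had 21.4, 30.5 and 18.5 CPM in NO and 18.4, 19.2 and 19.4 CPM in CN, and a log2 fold change of 0.30 ± 0.19 that did not pass the test (edgeR, adjusted p = 0.160). Under total counts and under TMM over protein-coding genes it was called higher there too. Its partner NOP58 had 32.1, 32.9 and 21.9 CPM in NO and 36.7, 35.8 and 36.4 CPM in CN of HEK WT (log2 fold change -0.33 ± 0.19, edgeR, adjusted p = 0.172). Per kb of exon NOP56 ranked 14 among the members in CN of HEK WT and 3 in NO.

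The members that fell furthest from CN to NO in HEK WT were UTP23, NOL10, RCL1, SNU13 and WDR36. UTP23, a factor with a nuclease-like fold, had 2.17, 2.74 and 1.26 CPM in NO and 3.96, 3.85 and 3.61 in CN (log2 fold change -0.90 ± 0.26, edgeR, adjusted p = 0.0175), and NOL10 had 12.4, 14.4 and 9.30 against 22.8, 20.8 and 21.8 (-0.86 ± 0.18). RCL1 had 2.94, 3.64 and 3.22 against 5.48, 5.90 and 6.08 (-0.83 ± 0.16), SNU13 had 3.59, 3.99 and 2.43 against 5.92, 5.04 and 6.45 (-0.80 ± 0.21), and WDR36 had 13.4, 14.4 and 8.98 against 22.2, 20.3 and 19.8 (-0.76 ± 0.19). No NO library of these members reached the lowest CN library. FBL had 6.44, 8.38 and 4.37 CPM in NO and 9.34, 8.51 and 9.90 in CN, a log2 fold change of -0.54 ± 0.22 that did not pass the test (edgeR, adjusted p = 0.0675), and RRP9 had 0.449, 0.291 and 0.441 against 0.463, 0.512 and 0.553 (-0.36 ± 0.34).

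In HEK UL1 KO the largest falls from CN to NO were those of NOC4L, UTP23, NOL10, TSR1 and IMP4. NOC4L had 0.282, 0.411 and 0.171 CPM in NO and 0.592, 0.761 and 0.799 in CN (log2 fold change -1.31 ± 0.30, edgeR, adjusted p = 0.00214), and UTP23 had 2.23, 1.64 and 3.44 against 5.10, 6.41 and 5.18 (-1.20 ± 0.23). NOL10 had 10.78, 9.57 and 12.3 against 22.9, 25.5 and 23.0 (-1.13 ± 0.15), TSR1, a GTPase-like factor of the pre-40S particle, had 6.14, 6.59 and 7.31 against 14.4, 13.7 and 13.2 (-1.04 ± 0.14), and IMP4 had 0.787, 0.691 and 0.706 against 1.45, 1.503 and 1.57 (-1.03 ± 0.18). All 5 had NO values below all their CN values. FBL had 3.57, 5.03 and 5.03 against 8.87, 8.65 and 9.43 (-0.99 ± 0.16), SNU13 had 2.83, 2.90 and 3.53 against 5.96, 5.97 and 6.55 (-1.002 ± 0.15), NOP58 had 23.5, 17.4 and 29.0 against 39.9, 42.0 and 38.1 (-0.78 ± 0.19), and RRP9 had 0.307, 0.411 and 0.385 against 0.440, 0.361 and 0.502 (-0.27 ± 0.27). Of these 4, RRP9 was the one that did not pass the test.

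**Figure D4:**
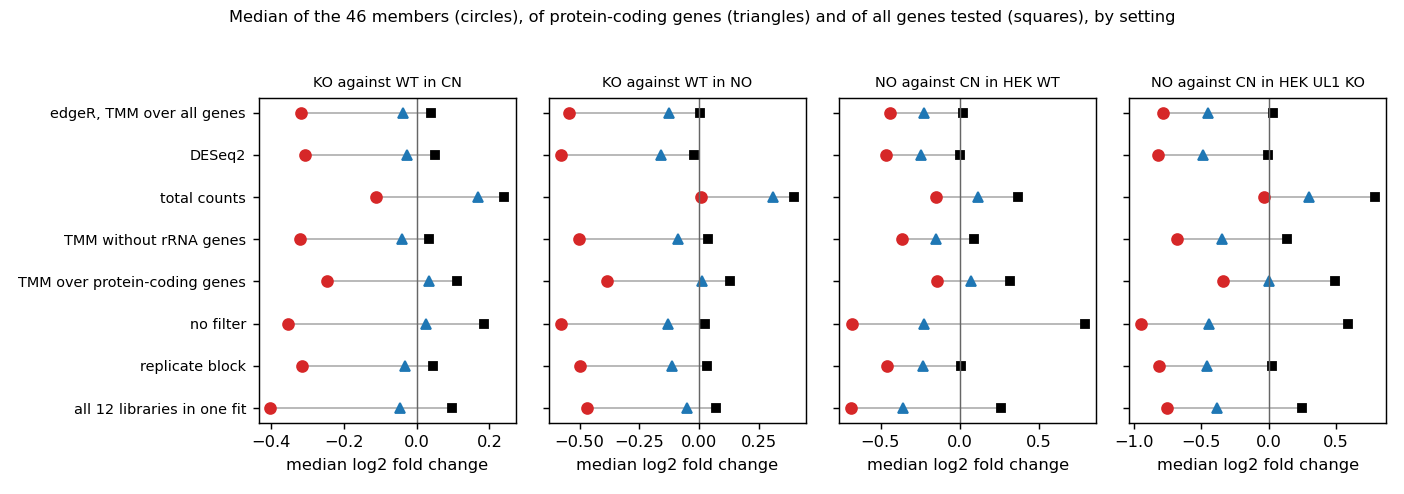
Median log2 fold change of the 46 members (circles), of protein-coding genes (triangles) and of all genes tested (squares) in 4 comparisons, for each way of scaling or fitting the counts; grey lines join members and all genes. The absolute values move with the scaling, for example from -0.32 to -0.11 for the members in CN under total counts, while the members' median stays below that of protein-coding genes in every setting drawn.

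NOP56 is also the member that holds the most snoRNA genes. Several members carry box C/D or H/ACA snoRNAs on their own strand, and 15 such genes in 5 hosts were in the tables: 5 in NOP56, 4 in NOP58, 3 in WDR43, 2 in TSR1 and 1 in NOL11. A pair of box C/D snoRNAs from NOP56 are shown because they come from the locus whose mRNA stood apart. The first capitals mark box C and the last mark box D (CTGA).
SNORD110: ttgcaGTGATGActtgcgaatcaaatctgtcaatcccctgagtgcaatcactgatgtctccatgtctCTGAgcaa
SNORD57: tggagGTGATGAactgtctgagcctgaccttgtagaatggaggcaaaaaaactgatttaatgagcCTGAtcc
SNORD110 (chr20:2654212-2654286) and SNORD57 (chr20:2656939-2657010) lie on the plus strand of GRCh38 by GENCODE release 44. In HEK WT, 12 of the 14 hosted snoRNA genes tested were higher in NO than in CN by edgeR (31.9% of all genes were), with log2 fold changes of 4.86 for SNORD110 and 4.41 for SNORD57. The host mRNAs NOP58, WDR43, TSR1 and NOL11 had log2 fold changes between -0.61 and -0.26.

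All 5 snoRNA genes of NOP56 overlap exons of NOP56 in the annotation. Their summed counts were 1336, 589 and 1371 in NO of HEK WT beside 1970, 1333 and 1886 for NOP56 itself. In CN they were 86, 85 and 85 beside 1053, 999 and 1008. How reads in such overlaps were assigned is not given in the sources used here, and their part in the NOP56 value was not tested. Between genotypes, 0 of 14 hosted snoRNA genes were called in NO by edgeR, where 0.939% of all genes were. The log2 fold changes of the 14 ran from -1.55 to -0.28, and 7 had an unadjusted p under 0.05. DESeq2 called SNORD110 and SNORA51 lower in NO, where 2.37% of all genes were. In CN 1 of 7 was lower by edgeR, where 22.3% of all genes were. It was SNORA38B in NOL11 (-0.99 ± 0.35, edgeR, adjusted p = 0.0448), a call that DESeq2 did not make. The 5 U3 genes were higher in NO than in CN of HEK WT, with log2 fold changes from 4.59 to 5.18, and 0 of 5 were called between genotypes in either fraction by edgeR (0 in NO and 1 in CN at an unadjusted p under 0.05). DESeq2 called 3 lower in NO (SNORD3A, SNORD3B-2 and SNORD3C) and 0 in CN. Reads of the U3 genes cannot be told apart where the copies are identical.

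**Figure D5:**
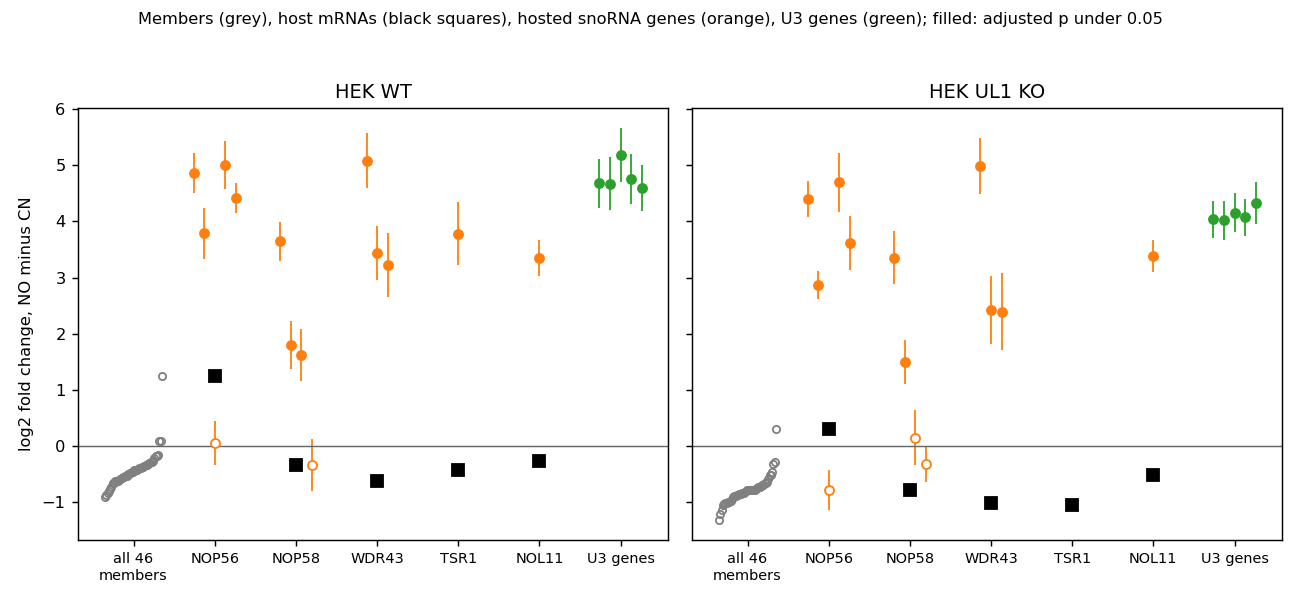
Log2 fold change of NO minus CN in HEK WT (left) and HEK UL1 KO (right) for all 46 members (grey circles), for 5 host mRNAs (black squares) with the snoRNA genes inside them (orange) and for the U3 genes (green), with bars of 1 standard error; filled orange and green points had an adjusted p under 0.05. NOP56 is at 1.26 in HEK WT and 0.30 in HEK UL1 KO, while NOP58, WDR43, TSR1 and NOL11 lie below 0.

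Genes of the pathway outside the 46 were counted in the same way. Of 30 processome and 40S assembly genes that are not members, 14 fell and 0 rose in CN (22.3% of all genes fell, and DESeq2 called 12 lower and 0 higher), with a median of -0.19, and 0 of 30 were called in NO by edgeR (10 at an unadjusted p under 0.05, and MTREX, AK6 and UTP14A lower by DESeq2). Of all genes tested in NO, 0.939% were called by edgeR and 2.37% were lower by DESeq2. In CN 19.0% of all genes were lower by DESeq2. The largest falls in CN were those of the kinase AK6 (-0.96 ± 0.07, edgeR, adjusted p = 5.96e-06), the helicase MTREX (-0.93 ± 0.07) and UTP25 (-0.91 ± 0.08). AK6 lies 4.21 Mb from UTP15 and is 1 of the 57 neighbours counted around it. Of 8 chaperones that build the box C/D particle, 5 fell in CN, among them ZNHIT6 (-0.98 ± 0.07, edgeR, adjusted p = 6.55e-06), RUVBL2 (-0.39) and RPAP3 (-0.33), while DESeq2 called 2 (ZNHIT6 and RPAP3) in CN, and 0 of 8 were called in NO by edgeR (2 at an unadjusted p under 0.05) or by DESeq2.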

How the data were processed

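RNA of 2 fractions (NO and CN) and 2 genotypes was analysed in 12 libraries, 3 per group, with groups taken from the labels. The authors trimmed reads with cutadapt 3.7, aligned them to GRCh38 with STAR 2.7.8, counted genes with featureCounts, and deposited raw counts per gene, 1 table per fraction. Strand, overlap and multi-mapping options of the counting, use of molecular identifiers and the annotation release are not given in the sources used here. Reads that several genes share can shift the values of BMS1, RRP7A and genes with antisense partners.

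Counts were tested in R 4.3.3 with edgeR 4.0.16: filterByExpr (minimum count 10, minimum total 15), TMM over all genes, the quasi-likelihood test, and Benjamini-Hochberg adjustment over all genes tested, called under 0.05. Each comparison used its own 6 libraries, and the interaction used all 12. CPM are TMM-normalized within a fit and differ between fits. Standard errors of log2 fold changes were derived from the F statistic. The scripts were tested on simulated data. DESeq2 1.42.0, other scalings, no filter, a replicate block, all 12 libraries in one fit and leaving out each library were alternatives. The block is not in the reported fits, because same-numbered libraries did not deviate together. Replicates were compared by chi-square per gene, which ranged from 17.1 to 104.4. This measure covers counting error only. It was averaged over genes with the rRNA genes included, so a few genes with very many counts can carry it. It does not show how the replicates were separated.

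Members and gene lists were chosen with earlier results of these data known. Values per library are given for FBL, NOP56, NOP58, SNU13 and RRP9, for HNRNPUL1, and for the up to 5 called members with the largest log2 fold change in each direction of each comparison. From other lists, up to 3 called genes per direction are named. PWP2 and NOL11 were singled out after their values had been seen, as were the members named beside their neighbours. Positions and exon lengths came from GENCODE release 44, promoters and neighbours from RefSeq, handled in Python 3.11.15 with pandas 2.3.3, numpy 2.4.6 and matplotlib 3.10.9. Counting error adds to the spread between replicates, most for members with few counts.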

Additional observations from a re-analysis of the deposited data

How the results depend on the processing

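In CN, the 26 calls, all lower, became 3 lower and 1 higher under total counts and 4 lower with all 12 libraries in one fit. The members' median of -0.32 was -0.11 under total counts, -0.25 under TMM over protein-coding genes, -0.35 without a filter, -0.40 with all 12 libraries and -0.20 after subtracting the neighbours' median. Leaving out a library gave 21 to 25 calls, all lower except 3 higher without WT replicate 3, and medians from -0.32 to -0.26. Of all genes, 15.8 to 19.9% were lower in those fits. Relative to all genes, the median lay between -0.54 and -0.32 in the 13 alternatives, and all 26 called members kept a negative sign. In NO, the 0 calls became 5 with DESeq2, 3 without a filter and 6 with all 12 libraries (with 2.37, 1.49 and 2.99% of all genes lower), and the median of -0.54 was 0.00703 under total counts. Leaving out a library gave 0 to 32 calls, with 32 without WT replicate 3 and 1 (UTP15) without KO replicate 3, and medians from -0.81 to -0.33. Of all genes, 15.3% were lower without WT replicate 3 and 0.347% without KO replicate 3.

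For NO against CN in HEK WT, the 21 calls were 20 lower and 1 higher (NOP56). They became 1 under total counts (0 lower), 11 under TMM without rRNA genes (10 lower, 21.7% of members against 16.8% of all genes), 3 under TMM over protein-coding genes (2 lower) and 37 with all 12 libraries (36 lower). The median of -0.44 was -0.15 under total counts and also under TMM over protein-coding genes, -0.68 without a filter and -0.69 with all 12 libraries. Leaving out a library gave 8 to 33 calls, 33 without NO replicate 2 and 8, 9 and 12 without CN replicates 1, 2 and 3, and medians from -0.71 to -0.31. For HEK UL1 KO, the 42 calls became 1 under total counts and 20 under TMM over protein-coding genes. The median of -0.78 was -0.031 under total counts, -0.34 under TMM over protein-coding genes and -0.95 without a filter. Leaving out a library gave 40 to 42 calls and medians from -1.05 to -0.61, with 30.7 to 35.1% of all genes lower. Why these values moved was not tested, beyond the change of scale itself.

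The replicate block gave 23 calls in CN (all lower, with 20.01% of all genes lower), 0 in NO, 10 for NO against CN in HEK WT (9 lower, 19.6% of members against 13.1% of all genes, and NOP56 higher), 41 in HEK UL1 KO (32.6% of all genes lower) and 0 for the interaction. Same-numbered libraries had deviations with correlations from -0.48 to -0.04 across genes, so the numbers were not taken as pairs. Members with few counts, such as RRP9, NOC4L and NOL6, limit what the depth can show.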
